A study of Mus musculus with 18 samples.

Results

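The Toll-like receptors described here are Tlr1, Tlr2, Tlr3, Tlr4, Tlr6, Tlr7, Tlr8, Tlr9 and Tlr13, together with Myd88, the adaptor protein that most of them share. They were found by matching gene symbols in the deposited tables, and all 10 were present among 18922 genes. All 10 also passed the filter on low counts, which 15329 genes passed. Polyadenylated RNA was sequenced from brain tissue of Trem2 knockout and wild-type mice after photothrombotic stroke, in which a laser activates the dye Rose Bengal inside cortical vessels and closes them. Trem2 encodes a receptor of myeloid cells, in the brain mainly microglia, that binds lipids. The groups were knockout infarct core, wild-type infarct core, knockout peri-infarct tissue, wild-type peri-infarct tissue, knockout contralateral tissue and wild-type contralateral tissue, with 3 libraries in each of the 6 groups. Every mouse was a male of C57Bl6 background aged 8 to 10 weeks, and every mouse was given 50 mg/kg Rose Bengal and light of 525 nm at 125 mW over a lesion 3 mm wide. Tissue was taken 7 days later with the stain TTC as a guide. The contralateral tissue is therefore the uninjured side of injured animals, and no group without a stroke was analysed here. The labels do not describe the knockout allele, and they do not say which libraries share an animal, so each p-value reflects the variation among these libraries alone, and that variation may be technical.

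Toll-like receptors are membrane proteins that recognise microbial molecules and molecules released by damaged cells. Tlr1, Tlr2, Tlr4 and Tlr6 act mainly at the cell surface, whereas Tlr3, Tlr7, Tlr8, Tlr9 and Tlr13 sense nucleic acids inside endosomes. Binding draws Myd88 or the adaptor Ticam1 to the receptor and leads to activation of NF-kB and interferon regulatory factors, and in the brain microglia and macrophages carry most of these receptors, with Tlr3 known also from astrocytes.

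Tlr1 and Tlr6 are neighbours on chromosome 5 and are so alike that reads cannot always be assigned to one of them, so a stretch of both is shown first. The sequences below are 120 coding bases of each gene from GENCODE M21 transcripts, bases 1408 to 1527 of the Tlr1 coding sequence and bases 1447 to 1566 of the Tlr6 coding sequence, with the single base that differs in capitals.
Tlr1: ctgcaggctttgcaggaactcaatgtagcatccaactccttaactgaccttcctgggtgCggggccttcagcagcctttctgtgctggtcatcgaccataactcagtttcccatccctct
Tlr6: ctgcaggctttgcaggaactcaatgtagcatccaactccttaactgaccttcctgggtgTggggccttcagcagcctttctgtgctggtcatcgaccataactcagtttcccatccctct
The longest run of identical bases was 229, at bases 1468 to 1696 of Tlr1 and 1507 to 1735 of Tlr6. Shared runs of at least 50 bases covered 31.3% of the Tlr1 coding sequence and 30.9% of that of Tlr6. In the other 44 pairs of the 10 genes the longest shared run was 9 to 16 bases. The deposited estimates show the same overlap, since Tlr1 and Tlr6 had fractional counts in 18 of 18 libraries while their sum was whole, within 0.005, in 18 of 18. The division of reads between these genes is therefore an estimate, and their sum is given beside them. Tlr7 also had fractional counts in 18 of 18 libraries, and the source of its shared reads was not sought.

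The promoters of 4 genes are shown because they stand for different patterns below. Tlr8 had the largest difference between core and contralateral tissue, Tlr3 the smallest, Tlr2 was lower in knockout libraries of every region, and Myd88 is the common adaptor. The 250 bases before the annotated start are given from RefSeq (build GRCm38.p6, whereas the counts were made on GRCm39), each on the strand of its gene, which is the minus strand in all 4, at chr3:83841609-83841858 for Tlr2, chr8:45410381-45410630 for Tlr3, chr9:119340019-119340268 for Myd88 and chrX:167264330-167264579 for Tlr8. Capitals mark a match to a pattern of NF-kB sites, GGGNNN followed by TTCC, in Tlr2 and Tlr3, and a match to a pattern of interferon response elements, GAAANN followed by GAAA, in Myd88.
Tlr2: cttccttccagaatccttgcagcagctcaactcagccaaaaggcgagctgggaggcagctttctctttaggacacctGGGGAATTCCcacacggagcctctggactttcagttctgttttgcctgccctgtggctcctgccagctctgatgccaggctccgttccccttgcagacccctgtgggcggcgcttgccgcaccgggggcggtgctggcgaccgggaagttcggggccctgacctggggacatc
Tlr3: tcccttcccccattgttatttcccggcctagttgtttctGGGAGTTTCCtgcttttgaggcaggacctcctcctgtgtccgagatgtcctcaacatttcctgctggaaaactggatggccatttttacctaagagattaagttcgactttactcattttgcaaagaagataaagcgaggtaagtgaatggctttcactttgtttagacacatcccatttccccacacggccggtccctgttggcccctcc
Myd88: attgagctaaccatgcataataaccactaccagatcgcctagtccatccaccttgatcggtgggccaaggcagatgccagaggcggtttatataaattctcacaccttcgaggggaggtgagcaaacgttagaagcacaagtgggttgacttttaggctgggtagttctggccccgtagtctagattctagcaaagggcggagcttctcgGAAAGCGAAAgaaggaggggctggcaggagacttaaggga
Tlr8: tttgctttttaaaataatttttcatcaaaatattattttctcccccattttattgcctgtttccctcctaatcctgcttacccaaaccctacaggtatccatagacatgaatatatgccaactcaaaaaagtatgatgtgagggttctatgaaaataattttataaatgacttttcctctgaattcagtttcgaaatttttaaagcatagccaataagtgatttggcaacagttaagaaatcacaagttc
RefSeq gave 10 promoters for 8 of the 10 genes, and those of Tlr4 and Tlr7 were not used here. Searched on both strands, the NF-kB pattern was found in 3 of these 10 promoters and in 4.65% of 32851 promoters. The matches lay 173 bases before the start of Tlr2, 211 before that of Tlr3 and 99 before one start of Tlr6. A looser form, GGGNNN followed by NNCC, which every match of the first form also meets, was found in the same 3 promoters and in 45.8% of all. The interferon pattern was found in 2 promoters and in 2.98% of all, 40 bases before the start of Myd88 and as an overlapping pair, 116 and 110 bases before the start, in another promoter of Tlr6. GAGGAAGT, a pattern of the myeloid factor PU.1, was found in 1 promoter, 23 bases before a start of Tlr1, and in 2.44% of all. A match is only a run of letters, and the windows without one may hold sites outside these 250 bases.

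The 18 libraries held 16993978 to 18713770 counts. The third wild-type core library stood apart from the other 17. It had the largest total, it detected 16216 genes where the others detected 16720 to 17109, and its top 10 genes made up 15.5% of the counts, where they made up 3.27% to 5.38% elsewhere. Its 6 neuron markers summed to 7.78 CPM, counts scaled to the depth of each library with TMM factors, where the other 2 wild-type core libraries had 3827 and 4369 CPM, and its 7 microglia and macrophage markers summed to 9578 CPM where those 2 had 2439 and 2779 CPM. It is called the outlying library below, and results that rest on it are given with and without it. Trem2, the gene named in the knockout label, had 5.23 to 8.24 CPM in knockout core and 184 to 920 CPM in wild-type core. In peri-infarct tissue Trem2 had 2.47 to 3.93 CPM in knockout and 91.4 to 130 CPM in wild-type mice. In contralateral tissue it had 0.34 to 0.90 CPM in knockout and 20.5 to 28.0 CPM in wild-type mice. The genotype labels thus hold in every library, although some Trem2 reads remained in each knockout library.

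All 10 genes rose in the infarct core over contralateral tissue in both genotypes. In knockout mice 10 of 10 were called higher by edgeR's quasi-likelihood test at an adjusted p under 0.05, where 19.7% of all tested genes were, and the median log2 fold change over the 10 was 3.06 where that of all genes was -0.01. Wild-type core gave 10 of 10, where 29.1% of all genes were called higher, with a median of 3.24 where all genes had -0.03. Both counts stayed at 10 without the outlying library, beside 29.6% of all genes in knockout and 23.6% in wild-type mice, and the wild-type median was 2.44. Fitted on only the 2 groups compared, the outlying library included, the wild-type comparison called 0 of the 10 and 0 of all genes. The libraries of core and contralateral tissue did not overlap for any of the 10 genes in either genotype, where 33.6% of all genes were higher without overlap in knockout and 30.9% in wild-type mice. In bulk tissue more cells of a type and more RNA per cell cannot be told apart, and the microglia and macrophage markers, all 7 of them detected in every library, moved with these genes. Their summed level was 1978 to 2892 CPM in knockout core and 2439 to 9578 CPM in wild-type core, 1099 to 1220 CPM in knockout and 1384 to 1748 CPM in wild-type peri-infarct tissue, and 269 to 362 CPM in knockout and 364 to 459 CPM in wild-type contralateral tissue. Markers of other cell types moved too. Infiltrating macrophage markers summed to 226 to 298 CPM in knockout core and 155 to 1130 CPM in wild-type core, against 11.5 to 20.4 CPM in knockout and 15.1 to 33.0 CPM in wild-type contralateral tissue. Neutrophil markers summed to 82.0 to 161 CPM in knockout core and 56.1 to 167 CPM in wild-type core, against 10.7 to 14.8 CPM in knockout and 16.6 to 19.7 CPM in wild-type contralateral tissue. Up to 2 of these 10 markers were at 0 in a knockout core library and up to 3 in a wild-type core library. In contralateral libraries up to 3 were at 0 in knockout and up to 4 in wild-type mice, always with Ly6g among them. The neutrophil sums thus rest on part of the list. Fibroblast markers summed to 1780 to 3535 CPM in knockout core and 1491 to 4699 CPM in wild-type core, against 39.0 to 64.6 CPM in knockout and 44.6 to 80.1 CPM in wild-type contralateral tissue. The part of each of these cell types in the rise was not tested.

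**Figure D1:**
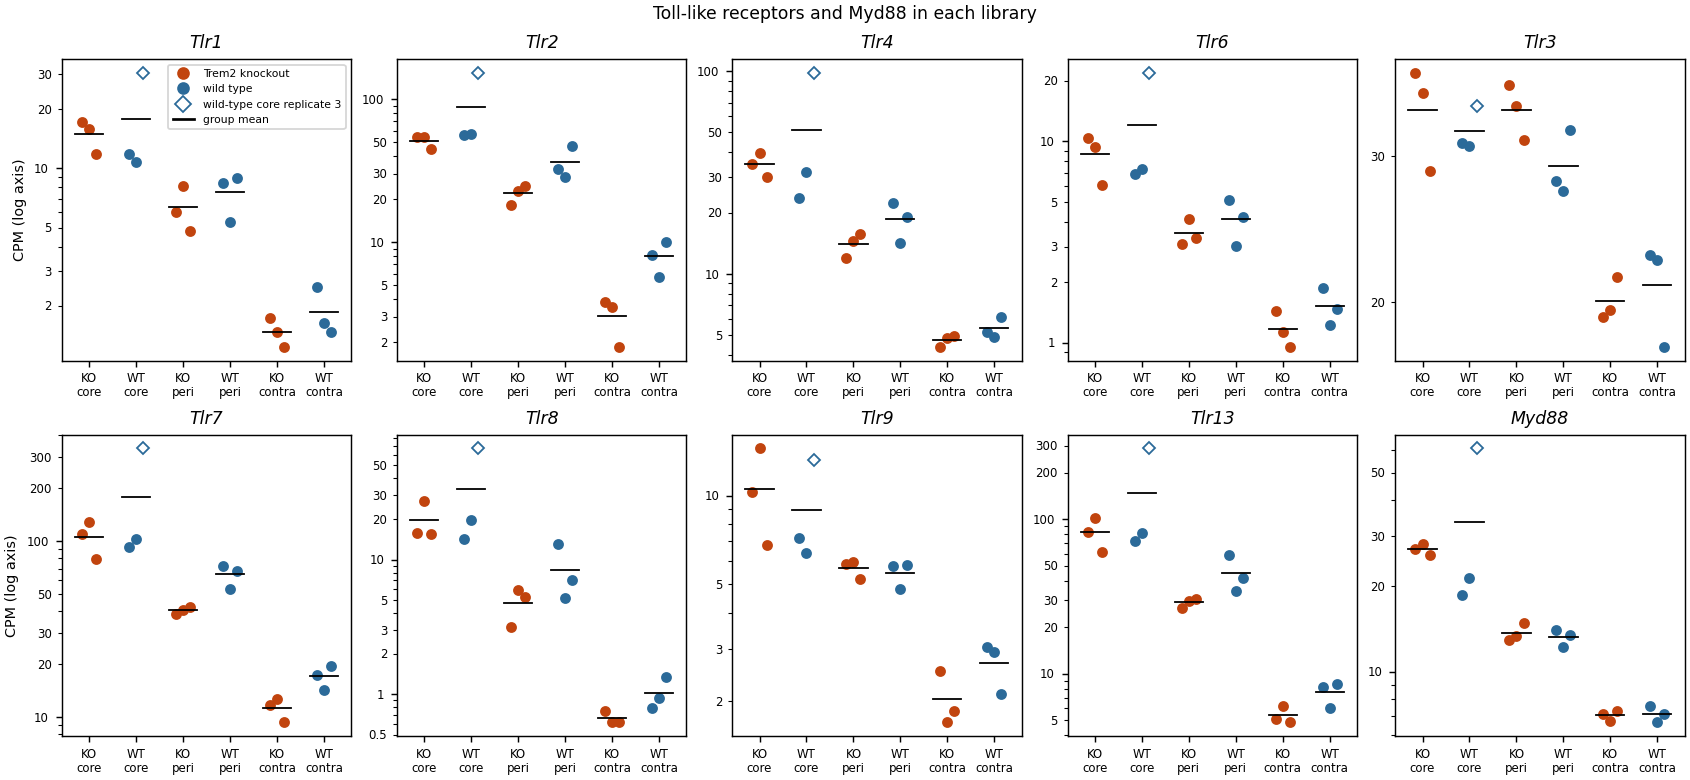
Level of each Toll-like receptor and of Myd88 in CPM (log axis, scaled per gene) in the 18 libraries, with knockout in orange, wild type in blue, group means as bars and the outlying library as an open diamond. Every gene is lowest in contralateral tissue, and Tlr8 spans the widest range on the log axis, 0.62 to 66.9 CPM.

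Peri-infarct tissue lay between core and contralateral tissue for every gene but Tlr3. In knockout mice 8 of 10 genes rose over contralateral tissue, where 4.42% of all genes were called higher, with a median log2 fold change of 1.71 where all genes had 0.04. Tlr6 (1.58 ± 0.43, adjusted p = 0.053) and Myd88 (0.97 ± 0.32, adjusted p = 0.12) did not pass there. In wild-type mice 6 of 10 rose, where 3.27% of all genes did, with a median of 1.85 where all genes had 0.02, and Tlr6, Tlr3, Tlr9 and Myd88 did not pass. All 10 genes passed in both genotypes once the outlying library was left out of the shared estimate of the spread, beside 13.7% of all genes in knockout and 14.2% in wild-type mice. These counts rest on few libraries. Without any single knockout contralateral library the knockout count was 1 or 2, where 0.349% to 0.531% of all genes were called higher, and without any single knockout peri-infarct library it was 3 to 5, where 1.04% to 1.7% of all genes were. The wild-type count was 0 without any single wild-type contralateral library, where 0 to 4 of all genes were called higher, and without either wild-type peri-infarct library 1 or library 3, where 18 and 0 of all genes were. The calls over all genes thus shrank with those of the receptors. The libraries of peri-infarct and contralateral tissue did not overlap for any of the 10 genes in either genotype, where 25.7% of all genes were higher without overlap in knockout and 22.3% in wild-type mice.

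Between core and peri-infarct tissue the calls depended on single libraries. In knockout mice 0 of 10 genes passed in edgeR's test with 18 libraries, where 0 of all genes did, although 9 of 10 had an unadjusted p under 0.05, where 18.6% of all genes had one, and DESeq2 called 7, where it called 4.4% of all genes higher. The same comparison called 9 of 10 once the outlying library was left out, beside 24.3% of all genes, with Tlr3 the exception. The libraries of core stood above those of peri-infarct tissue without overlap for 9 of 10 genes in each genotype, again all but Tlr3, where 26.1% of all genes did so in knockout and 19.4% in wild-type mice. In wild-type mice 8 of 10 rose, where 12.3% of all genes did, and 2 of 10, Tlr13 and Myd88, rose without that library, beside 4.88% of all genes. The replicate block, which pairs libraries by number, and the fit on only the groups compared each called 0 of the 10 genes and 0 of all genes in this wild-type comparison. Same-numbered libraries did not all deviate together there (r of -0.277, 0.417 and 0.071), so the data give this pairing little basis. That wild-type count was also 0 without any single wild-type peri-infarct library, 4 without the second knockout peri-infarct library and 5 without the first knockout core library, where 0 to 95 of all genes, 5.12% and 5.68% were called higher in that order.

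**Figure D2:**
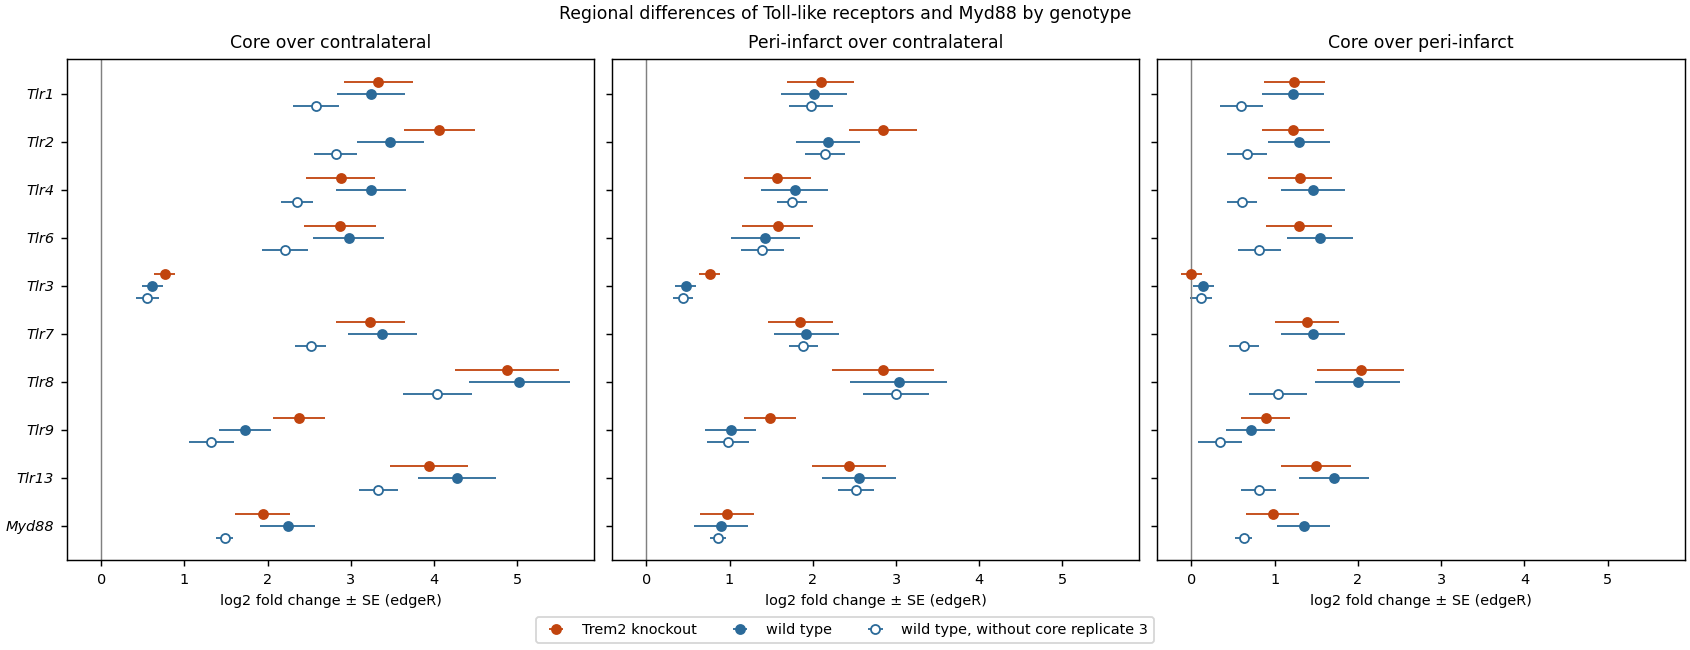
Log2 fold changes ± SE (edgeR) for core over contralateral, peri-infarct over contralateral and core over peri-infarct tissue, in knockout mice (orange), wild-type mice (filled blue) and wild-type mice without the outlying library (open blue). Tlr8 sits furthest right in core over contralateral tissue at 4.87 in knockout and 5.03 in wild-type mice, and Tlr3 furthest left at 0.76 and 0.61.

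Among the surface receptors Tlr2, the common partner of Tlr1 and Tlr6 in binding bacterial lipoproteins, showed the largest difference between core and contralateral tissue. Tlr2 had 54.4, 54.2 and 44.5 CPM in the knockout core libraries and 55.8, 56.8 and 153 CPM in the wild-type core libraries. Peri-infarct levels of Tlr2 were 18.1, 22.7 and 24.9 CPM in knockout and 32.4, 28.7 and 47.2 CPM in wild-type mice. Contralateral levels of Tlr2 were 3.80, 3.50 and 1.85 CPM in knockout and 8.19, 5.69 and 9.98 CPM in wild-type mice. Regions did not overlap within either genotype, and in each region every knockout library was below every wild-type library. The Tlr2 core difference over contralateral tissue was 4.06 ± 0.42 in knockout mice (log2 ± SE, adjusted p = 0.00012) and 3.47 ± 0.40 in wild-type mice (adjusted p = 0.00011), or 2.82 ± 0.26 in wild-type mice without the outlying library. Its peri-infarct difference was 2.84 ± 0.41 in knockout mice (adjusted p = 0.0054) and 2.18 ± 0.39 in wild-type mice (adjusted p = 0.022).

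Tlr4, the receptor for lipopolysaccharide, had 34.9, 39.5 and 29.98 CPM in knockout core and 23.8, 31.9 and 98.3 CPM in wild-type core. It had 11.97, 14.5 and 15.8 CPM in knockout and 22.4, 14.2 and 19.2 CPM in wild-type peri-infarct tissue. Contralateral libraries had 4.37, 4.85 and 4.95 CPM in knockout and 5.198, 4.87 and 6.17 CPM in wild-type mice. Regions were separate within each genotype while the genotypes overlapped in every region. Tlr4 in core exceeded contralateral tissue by 2.88 ± 0.42 in knockout mice (adjusted p = 0.00030) and by 3.24 ± 0.42 in wild-type mice (adjusted p = 0.00012), or 2.36 ± 0.19 without the outlying library. Its peri-infarct rise, 1.58 ± 0.40 in knockout (adjusted p = 0.041) and 1.78 ± 0.40 in wild-type mice (adjusted p = 0.032), missed the threshold when libraries were scaled by another size factor (RLE), with adjusted p of 0.062 in knockout and 0.051 in wild-type mice.

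Tlr1, which with Tlr2 binds triacylated lipopeptides, had 17.2, 15.8 and 11.8 CPM in knockout core and 11.8, 10.7 and 30.6 CPM in wild-type core. Peri-infarct libraries had 5.99, 8.18 and 4.82 CPM in knockout and 8.45, 5.33 and 8.98 CPM in wild-type mice, and contralateral libraries 1.73, 1.47 and 1.24 CPM in knockout and 2.49, 1.64 and 1.47 CPM in wild-type mice. Tlr6, which with Tlr2 binds diacylated lipopeptides, ran in parallel at a lower level, with 6.08 to 10.4 CPM in knockout core and 6.91 to 21.9 CPM in wild-type core, and 0.96 to 1.44 CPM in knockout and 1.23 to 1.86 CPM in wild-type contralateral tissue. Both genes separated the regions and neither separated the genotypes. The core rise of Tlr1 was 3.33 ± 0.41 in knockout and 3.24 ± 0.41 in wild-type mice (adjusted p = 0.00020 and 0.00011 in that order), and that of Tlr6 was 2.87 ± 0.43 in knockout and 2.98 ± 0.43 in wild-type mice (adjusted p = 0.00036 and 0.00018 in that order). Without the outlying library the wild-type values were 2.58 ± 0.28 for Tlr1 and 2.21 ± 0.27 for Tlr6. For the sum of the 2 genes, which does not depend on how reads were divided, core exceeded contralateral tissue by 3.15 ± 0.41 in knockout and 3.13 ± 0.40 in wild-type mice. The summed peri-infarct difference was 1.89 ± 0.40 in knockout (adjusted p = 0.020) and 1.79 ± 0.39 in wild-type mice (adjusted p = 0.028), so the sum passed where Tlr6 alone did not.

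Of the endosomal receptors, Tlr7, which senses single-stranded RNA, was the most abundant in the lesion. Tlr7 had 109.8, 128.5 and 79.6 CPM in knockout core and 92.6, 104 and 338 CPM in wild-type core. Peri-infarct Tlr7 was 38.5, 40.6 and 42.5 CPM in knockout and 72.6, 53.6 and 68.0 CPM in wild-type mice. Contralateral Tlr7 was 11.7, 12.7 and 9.33 CPM in knockout and 17.5, 14.2 and 19.6 CPM in wild-type mice. In peri-infarct and in contralateral tissue all knockout libraries were below all wild-type libraries, while in core they overlapped. Core exceeded contralateral tissue by 3.23 ± 0.41 in knockout mice (adjusted p = 0.00021) and by 3.38 ± 0.41 in wild-type mice (adjusted p = 0.00011), or 2.52 ± 0.19 without the outlying library.

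Tlr13, a receptor of mice for bacterial ribosomal RNA, had 82.9, 102 and 61.9 CPM in knockout core and 71.9, 81.6 and 288 CPM in wild-type core. Peri-infarct libraries had 26.8, 29.7 and 30.6 CPM of Tlr13 in knockout and 58.5, 34.3 and 41.7 CPM in wild-type mice. Contralateral libraries had 5.06, 6.20 and 4.83 CPM in knockout and 8.19, 5.98 and 8.63 CPM in wild-type mice. The knockout libraries were all below the wild-type ones in peri-infarct tissue only. Tlr13 rose in core by 3.94 ± 0.47 in knockout mice (adjusted p = 0.00019) and by 4.27 ± 0.47 in wild-type mice (adjusted p = 0.00011), or 3.33 ± 0.23 without the outlying library.

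Tlr8 was the member closest to absent in contralateral tissue and the one with the largest rise. Human TLR8 senses single-stranded RNA, and the role of the mouse protein is less settled. It had 15.8, 27.3 and 15.6 CPM in knockout core and 14.3, 19.8 and 66.9 CPM in wild-type core. Peri-infarct Tlr8 was 3.17, 5.91 and 5.26 CPM in knockout and 13.1, 5.15 and 7.02 CPM in wild-type mice. In contralateral tissue it was 0.75, 0.62 and 0.62 CPM in knockout and 0.79, 0.94 and 1.35 CPM in wild-type mice, which stands for 11 to 13 counts in knockout and 14 to 23 counts in wild-type libraries. The contralateral levels of the genotypes did not overlap, but counts this low carry a large counting error. Core exceeded contralateral tissue by 4.87 ± 0.63 in knockout mice (adjusted p = 0.00021) and by 5.03 ± 0.61 in wild-type mice (adjusted p = 0.00011), or 4.04 ± 0.41 without the outlying library. The peri-infarct rise was 2.84 ± 0.61 in knockout (adjusted p = 0.022) and 3.03 ± 0.58 in wild-type mice (adjusted p = 0.023).

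Tlr9, the receptor for unmethylated CpG DNA, rose less. It had 10.3, 14.5 and 6.82 CPM in knockout core and 7.21, 6.37 and 13.3 CPM in wild-type core. Peri-infarct levels were 5.87, 5.97 and 5.21 CPM in knockout and 5.77, 4.81 and 5.81 CPM in wild-type mice, and contralateral levels were 2.53, 1.69 and 1.85 CPM in knockout and 3.05, 2.93 and 2.11 CPM in wild-type mice. Genotypes overlapped in every region. The core difference of Tlr9 over contralateral tissue was 2.38 ± 0.32 in knockout mice (adjusted p = 0.00022) and 1.73 ± 0.31 in wild-type mice (adjusted p = 0.00078), or 1.32 ± 0.27 without the outlying library. The difference between these 2 responses was 0.65 ± 0.43 (adjusted p = 0.98), or 1.05 ± 0.37 without that library (adjusted p = 0.44).

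Tlr3, which binds double-stranded RNA and signals through Ticam1 without Myd88, behaved unlike the other 9 genes in its levels. Its core levels were 37.8, 35.7 and 28.8 CPM in knockout and 31.1, 30.8 and 34.4 CPM in wild-type mice. Its peri-infarct levels were 36.5, 34.4 and 31.4 CPM in knockout and 28.0, 27.2 and 32.3 CPM in wild-type mice. Its contralateral levels were 19.2, 19.6 and 21.5 CPM in knockout and 22.8, 22.5 and 17.7 CPM in wild-type mice. Core and peri-infarct libraries overlapped, and both lay above contralateral libraries of the same genotype. The Tlr3 rise in core was 0.76 ± 0.13 in knockout mice (adjusted p = 0.00062) and 0.61 ± 0.13 in wild-type mice (adjusted p = 0.0019), and core minus peri-infarct was -0.0015 ± 0.12 in knockout and 0.14 ± 0.12 in wild-type mice. The outlying library, which had the highest level of 8 of the other 9 genes, was within the range of the knockout core libraries for Tlr3.

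Myd88 itself rose moderately. It had 26.9, 28.2 and 25.6 CPM in knockout core and 18.7, 21.4 and 61.0 CPM in wild-type core. Peri-infarct Myd88 was 12.9, 13.3 and 14.8 CPM in knockout and 14.0, 12.2 and 13.5 CPM in wild-type mice. Contralateral Myd88 was 7.08, 6.71 and 7.25 CPM in knockout and 7.57, 6.63 and 7.11 CPM in wild-type mice. Core, peri-infarct and contralateral libraries were separate in both genotypes, and the 3 libraries of a group lay close together except in wild-type core. Core exceeded contralateral tissue by 1.94 ± 0.33 in knockout mice (adjusted p = 0.00076) and by 2.24 ± 0.33 in wild-type mice (adjusted p = 0.00023), or 1.49 ± 0.10 without the outlying library. The peri-infarct differences, 0.97 ± 0.32 in knockout and 0.90 ± 0.32 in wild-type mice, did not pass with 18 libraries (adjusted p = 0.12 and 0.19 in that order). Without the outlying library they were 0.90 ± 0.09 in knockout and 0.86 ± 0.09 in wild-type mice, and both passed (adjusted p = 1.6e-05 each).

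The remaining Toll-like receptors of the mouse were scarce. Tlr5 and Tlr12 had at most 1.75 and 1.88 CPM in any library and were tested, and Tlr11 had at most 0.29 CPM and did not pass the filter. Tlr12 rose in wild-type core over contralateral tissue by 1.25 ± 0.35 (adjusted p = 0.013), and its difference in knockout core was 0.90 ± 0.35 (adjusted p = 0.080), or 0.89 ± 0.35 without the outlying library (adjusted p = 0.041). Tlr5 passed in none of the regional or genotype comparisons, with or without that library.

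Levels of different genes were compared per transcript length, in deposited TPM values, which scale counts to gene length and to the library. In core Tlr7 led with 52.6 ± 10.8 TPM in knockout and 66.9 ± 32.4 TPM in wild-type mice (mean ± SD, n = 3 in every group). Tlr13 followed with 42.9 ± 9.14 TPM in knockout and 57.8 ± 30.5 TPM in wild-type mice, and then Tlr2 with 38.8 ± 2.95 TPM in knockout and 52.3 ± 16.4 TPM in wild-type mice. Libraries of Tlr7 overlapped those of Tlr13, and those of Tlr13 overlapped those of Tlr2, in both genotypes. Without the outlying library Tlr2, at 42.8 TPM, stood above Tlr13, at 40.2 TPM, in wild-type core. Myd88 came next with 31.9 ± 0.71 TPM in knockout and 30.5 ± 11.9 TPM in wild-type mice, separate from Tlr2 in knockout core only. Tlr3 stood at 16.2 ± 1.70 TPM in knockout and 13.2 ± 2.65 TPM in wild-type core, below every library of Myd88. Tlr1, Tlr4, Tlr8, Tlr9 and Tlr6 had the lowest means in core of both genotypes, at 6.27 to 11.1 TPM in knockout and 4.44 to 10.7 TPM in wild-type mice, and neighbours in that order overlapped except Tlr6 and Tlr9 in wild-type core.

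Peri-infarct tissue also had Tlr7 first, at 21.0 ± 0.68 TPM in knockout and 33.2 ± 5.09 TPM in wild-type mice. In knockout mice Tlr2, Myd88, Tlr3 and Tlr13 followed, each overlapping with the next, at mean levels of 16.4 to 17.9 TPM. In wild-type mice Tlr2, Tlr13, Myd88 and Tlr3 followed at mean levels of 14.4 to 28.5 TPM, and Tlr13 was separate from Myd88. Contralateral tissue had another order, with Tlr3 first at 10.4 ± 0.65 TPM in knockout and 11.02 ± 1.63 TPM in wild-type mice. Myd88 followed with 9.12 ± 0.26 TPM in knockout and 9.40 ± 0.62 TPM in wild-type mice, and Tlr7 came after it with 5.32 ± 0.91 TPM in knockout and 8.51 ± 1.36 TPM in wild-type mice. These 3 genes did not overlap in knockout mice and did overlap in wild-type mice. Tlr8 was last with 0.32 ± 0.02 TPM in knockout and 0.49 ± 0.16 TPM in wild-type mice, and its libraries lay below those of Tlr6, the next gene, in both genotypes.

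**Figure D3:**
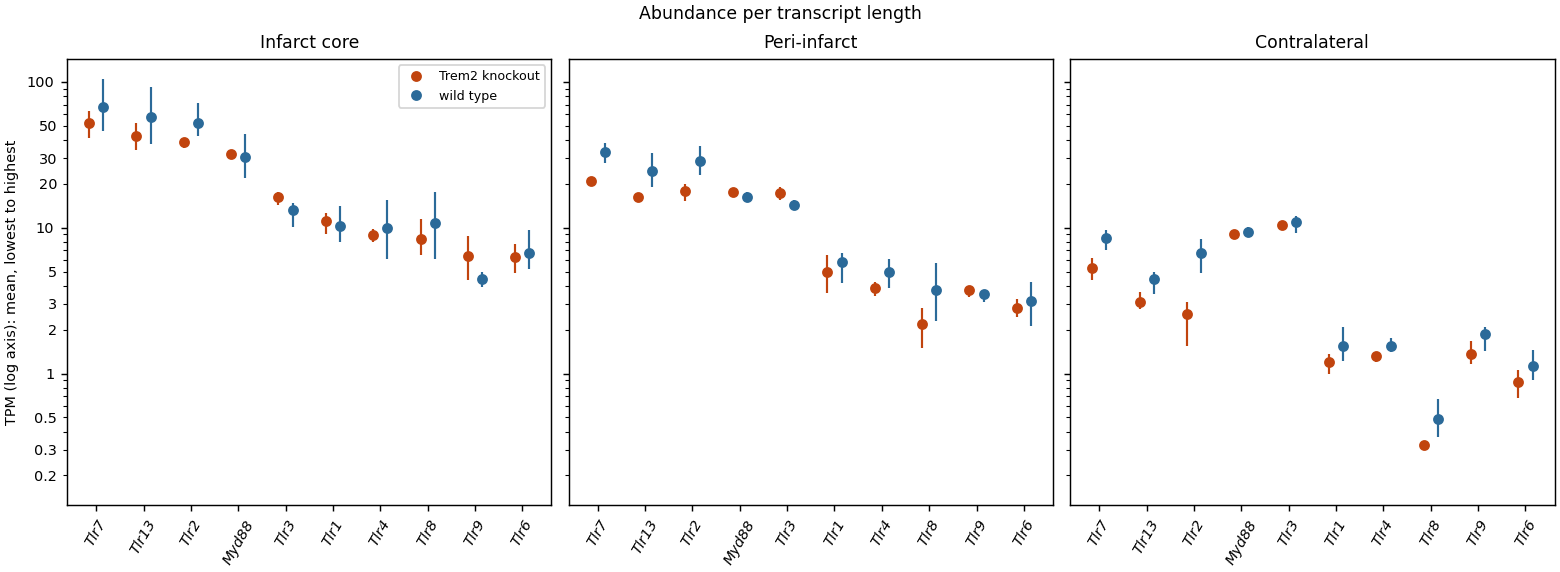
Mean TPM (points) with the lowest and highest library (lines) of each gene in core, peri-infarct and contralateral tissue on a log axis, knockout in orange left of wild type in blue, genes ordered by their mean over groups. Tlr3 and Myd88 lead in contralateral tissue and Tlr7, Tlr13 and Tlr2 in core, while Tlr8 is last in contralateral tissue.

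The genotype comparison asks whether loss of Trem2 alters these receptors. With 18 libraries 0 of 10 genes passed edgeR's test in core, peri-infarct or contralateral tissue, or in the mean over the 3 regions, where 0.013% of all genes were called in either direction in core, 0.00652% in peri-infarct, 0.00652% in contralateral tissue and 0.228% in the mean. At an unadjusted p under 0.05 there were 1 of 10 in core, 0 in peri-infarct tissue, 1 in contralateral tissue and 4 in the mean, where 11.9%, 3.23%, 2.96% and 13% of all genes had one in that order, and DESeq2 called 0 in each region. The median log2 fold change of knockout over wild type across the 10 genes was -0.52 in core, -0.33 in peri-infarct and -0.39 in contralateral tissue, where that of all genes was -0.01, -0.0036 and -0.02. The core median was 0.26 without the outlying library, so the core direction rested on it, whereas the peri-infarct and contralateral medians were -0.35 and -0.37.

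Tlr2 was the member with the most uniform genotype difference. Knockout libraries were below wild-type libraries without overlap in all 3 regions, as described above, where 5.09% of all genes were lower without overlap in core, 9.27% in peri-infarct and 10.5% in contralateral tissue. Its log2 fold change was -0.79 ± 0.37 in core (adjusted p = 0.42), -0.72 ± 0.37 in peri-infarct (adjusted p = 1.00) and -1.38 ± 0.40 in contralateral tissue (adjusted p = 1.00), and -0.96 ± 0.22 in the mean (adjusted p = 0.10). DESeq2 called that mean (adjusted p = 0.0043), where it called 1.66% of all genes lower. Leaving out the outlying library gave a core value of -0.12 ± 0.24 (adjusted p = 0.82) and a mean of -0.74 ± 0.14, which passed (adjusted p = 0.010). The regional response of Tlr2 was not shown to differ between genotypes. Its core response was larger in knockout mice by 0.59 ± 0.54 (adjusted p = 0.98), or by 1.24 ± 0.37 without that library (adjusted p = 0.36), and its peri-infarct response by 0.66 ± 0.54 (adjusted p = 1.00).

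Tlr7 was lower without overlap in peri-infarct and contralateral tissue, Tlr13 in peri-infarct and Tlr8 in contralateral tissue, and no member was higher in knockout without overlap in any region, where 5.16% of all genes were so in core, 8.02% in peri-infarct and 6.43% in contralateral tissue. Tlr7 differed by -0.68 ± 0.38 in peri-infarct and -0.60 ± 0.39 in contralateral tissue (adjusted p = 1.00 each), and by -0.68 ± 0.22 in the mean (adjusted p = 0.23). Without the outlying library the mean of Tlr7 was -0.38 ± 0.10 and passed (adjusted p = 0.038), so that 2 of 10 genes, Tlr2 and Tlr7, were called lower, beside 5.2% of all genes. The mean difference was -0.66 ± 0.24 for Tlr13 (adjusted p = 0.27) and -0.74 ± 0.32 for Tlr8 (adjusted p = 0.35), neither of which passed without that library (adjusted p = 0.11 for Tlr13 and 0.29 for Tlr8). The microglia and macrophage markers were lower in knockout mice in 2 of the 3 regions. Their sums were 1099 to 1220 CPM in knockout and 1384 to 1748 CPM in wild-type peri-infarct tissue. In contralateral tissue they were 269 to 362 CPM in knockout and 364 to 459 CPM in wild-type mice. In core these marker sums overlapped, at 1978 to 2892 CPM in knockout libraries and 2439, 2779 and, in the outlying library, 9578 CPM in wild-type libraries. Their part in these differences was not tested beyond the values relative to them given below.

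Myd88 was the only member called higher in knockout core, and only once that library was set aside. With 18 libraries its knockout over wild-type log2 fold change in core was -0.32 ± 0.31 (adjusted p = 0.69). Without the outlying library it was 0.45 ± 0.10 and passed (adjusted p = 0.030), 1 of 10 genes beside 0.998% of all genes called higher. The direction was not particular to Myd88. All other members except Tlr2 (-0.12) were then also above 0, from 0.12 for Tlr13 to 0.66 ± 0.26 for Tlr9 (adjusted p = 0.18), and none of them passed. The 3 knockout core libraries, at 25.6 to 28.2 CPM of Myd88, stood above the remaining 2 wild-type libraries at 18.7 and 21.4 CPM. The share of all genes separated in this way without the outlying library was not computed. In peri-infarct and contralateral tissue the Myd88 difference was 0.05 ± 0.32 and -0.02 ± 0.33 (adjusted p = 1.00 each). The summed neutrophil markers moved the same way, at 82.0 to 161 CPM in knockout core and 56.1 and 58.6 CPM in those 2 wild-type core libraries, with Ly6g, their defining marker, at 0 in 17 of 18 libraries. Fibroblast markers, at 1780 to 3535 CPM in knockout core and 1491 and 1554 CPM in those wild-type libraries, and markers of infiltrating macrophages, at 226 to 298 CPM in knockout core and 155 and 225 CPM in those wild-type libraries, were also higher without overlap. Neuron markers were lower, at 2820 to 3002 CPM in knockout core and 3827 and 4369 CPM in those wild-type libraries. The part of these markers in the Myd88 difference was not tested. Tlr3, Tlr1, Tlr4, Tlr6 and Tlr9 passed in no genotype comparison, with or without the outlying library. Without it 3.06% of all genes were called in either direction in core, 0.117% in peri-infarct tissue, 0.0389% in contralateral tissue and 7.46% in the mean.

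**Figure D4:**
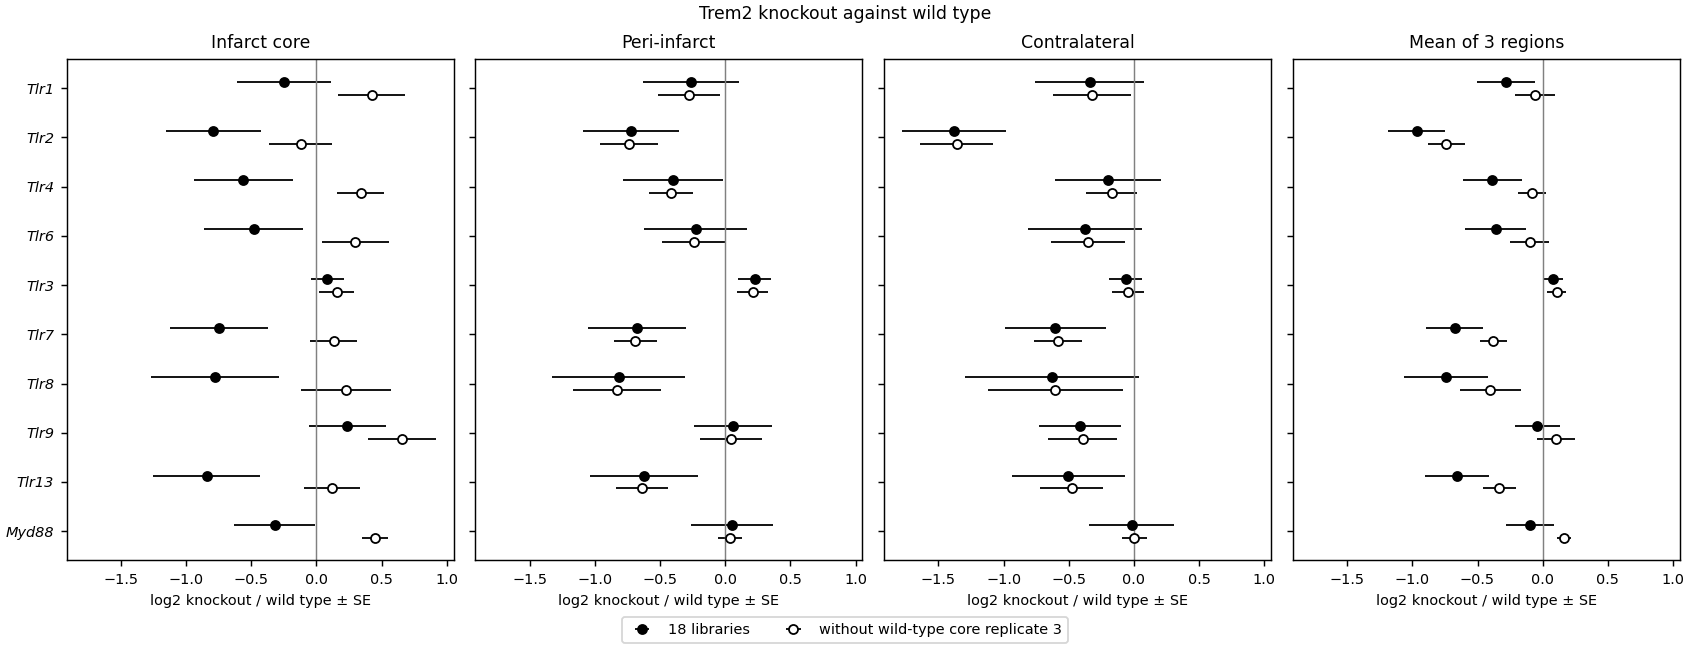
Log2 fold change of knockout over wild type ± SE (edgeR) in core, peri-infarct and contralateral tissue and in the mean of the 3 regions, with 18 libraries (filled) and without the outlying library (open). Tlr2 lies below 0 in every panel, and the core values of most genes, Myd88 among them (-0.32 and 0.45), cross 0 when that library is left out.

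To set the receptors beside the myeloid cells that carry them, the log2 CPM of each gene was taken relative to the mean log2 CPM of Csf1r, Aif1, Itgam, Cd68, C1qa, Fcer1g and Tyrobp in the same library. Tlr7 stayed nearly level on this scale. Its group means were -1.32 in knockout and -1.45 in wild-type core, -1.50 in knockout and -1.33 in wild-type peri-infarct tissue, and -1.34 in knockout and -1.20 in wild-type contralateral tissue. Tlr8 and Tlr13 were higher in core than in contralateral tissue even relative to these markers, without overlap, by 1.43 in knockout and 1.21 in wild-type mice for Tlr8 and by 0.70 in knockout and 0.60 in wild-type mice for Tlr13. Tlr3, Tlr9 and Myd88 were lower in core relative to the markers, also without overlap. Core minus contralateral tissue was -2.44 in knockout and -2.75 in wild-type mice for Tlr3 (with a wild-type core mean of -3.65, or -3.09 without the outlying library), -0.92 in knockout and -1.74 in wild-type mice for Tlr9, and -1.26 in knockout and -1.36 in wild-type mice for Myd88. The wild-type core mean of Tlr9 was -5.55, or -5.26 without that library. Tlr4 and Tlr6 were lower by less, without overlap in both genotypes for Tlr6 and in wild-type mice only for Tlr4, with -0.34 in knockout and -0.43 in wild-type mice for Tlr4 and -0.45 in knockout and -0.68 in wild-type mice for Tlr6, and Tlr1 differed by 0.05 in knockout and -0.34 in wild-type mice with overlap.

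The genotype differences changed on this relative scale. Knockout minus wild type for Tlr2 was 0.01 in core and -0.20 in peri-infarct tissue, both with overlap, but -0.93 in contralateral tissue without overlap, where the knockout libraries were at -3.09, -2.99 and -3.62 and the wild-type libraries at -2.32, -2.48 and -2.13. In knockout mice Tlr2 was thus 0.88 higher in core and 0.84 higher in peri-infarct than in contralateral tissue relative to the markers, and in wild-type mice the same differences were -0.05 and 0.12. The wild-type core mean of Tlr2 was -2.36, or -2.23 without the outlying library, beside -2.35 in knockout core and -2.31 in wild-type contralateral tissue. For Tlr7 the relative knockout minus wild-type difference was -0.17 in peri-infarct tissue, still without overlap, and -0.15 in contralateral tissue, with overlap. For Tlr13 it was -0.10 in peri-infarct tissue and for Tlr8 -0.08 in contralateral tissue, both with overlap. All 4 were smaller than the differences in CPM. Myd88 was higher in knockout libraries relative to the markers in each region without overlap, by 0.53 in core, 0.54 in peri-infarct and 0.43 in contralateral tissue. Its log2 fold change in CPM was 0.05 in peri-infarct and -0.02 in contralateral tissue. The marker mean itself was 6.74 to 6.93 in knockout and 7.12 to 7.48 in wild-type peri-infarct libraries. In contralateral libraries it was 4.60 to 5.06 in knockout and 5.02 to 5.47 in wild-type mice. A gene with level CPM is therefore shifted upward in knockout libraries on this scale. Most other members were also higher in knockout libraries on this scale without overlap in some region. In core these were Tlr9 by 0.88, Tlr1 by 0.54, Tlr4 by 0.35, Tlr6 by 0.34 and Tlr7 by 0.13, and in peri-infarct tissue Tlr3 by 0.72, Tlr9 by 0.55 and Tlr6 by 0.30. These core differences include the outlying library. Without it the wild-type core mean was -5.26 in place of -5.55 for Tlr9, beside -4.67 in knockout core. For Tlr1 it was -4.54 in place of -4.67, beside -4.13 in knockout core. These relative values were not tested, and the 7 markers include Tyrobp, the signalling partner of Trem2. The share of all genes without overlap on this scale was not computed, so no such separation is read as particular to these genes.

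**Figure D5:**
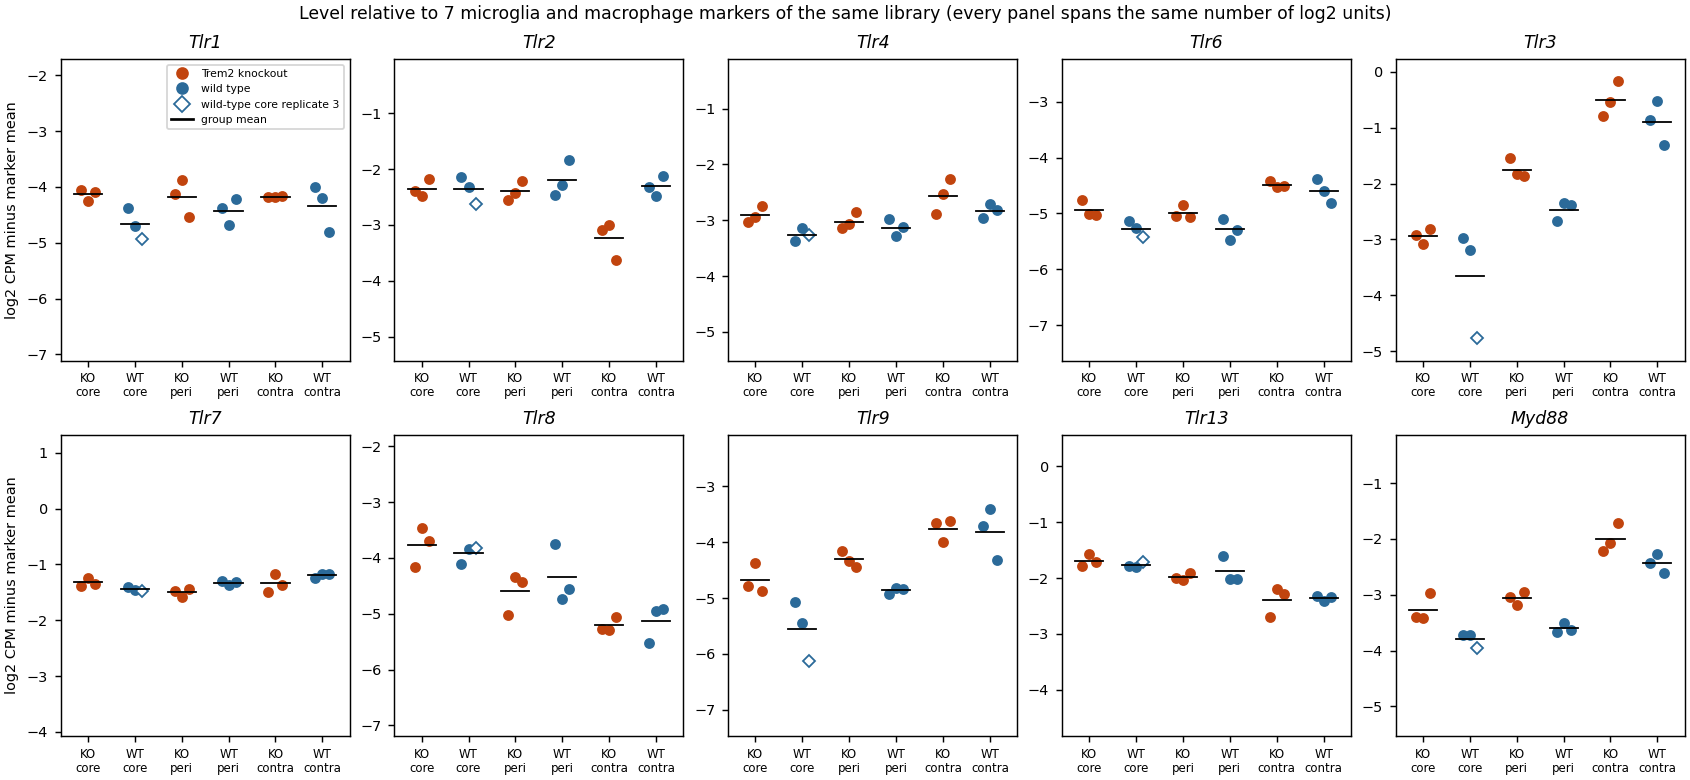
Log2 CPM of each gene minus the mean log2 CPM of 7 microglia and macrophage markers of the same library, by group, with the outlying library as an open diamond and bars for group means. Tlr7 stays between -1.59 and -1.17, Tlr3 drops furthest in core, and the 3 knockout contralateral libraries of Tlr2 (-3.62 to -2.99) lie below the wild-type ones.

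Over the 18 libraries the log2 CPM values of the receptors followed each other closely. Pearson's r between members ranged from 0.789, for Tlr3 with Myd88, to 0.996, for Tlr7 with Tlr13. The genes with the most similar profile among 13096 candidates were Mpeg1, Fyb and Adgre1 for Tlr13 (r of 0.999, 0.998 and 0.998) and Fyb, Slc15a3 and Myo1f for Tlr7 (0.998, 0.997 and 0.997). They were Mmp8, Abcc3 and Tmem106a for Tlr8 (0.995 to 0.993), Csf3r, Cd33 and Pld4 for Tlr9 (0.981 to 0.973) and Lilrb4a, Apoc2 and Spp1 for Tlr2 (0.990 to 0.988). For Tlr4 they were Tspo, Arhgap30 and Msn (0.996), for Tlr1 Gal3st4, Ptpn6 and Elk3 (0.990 to 0.987), for Tlr6 Psd4, Cyth4 and Gpr157 (0.994 to 0.992) and for Myd88 Vwa5a, Pnp and Lrp5 (0.994 to 0.993). Tlr3 was most like Kdr, a receptor of endothelium, with Pbxip1 and Tmem198b next (0.941 to 0.939). All these libraries share regions, genotypes and depth, so r describes the shared profile and no more.

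The proteins that work with the receptors were examined as lists. Of 12 accessory and trafficking genes 8 rose in knockout core and 11 in wild-type core over contralateral tissue, and 4 in knockout and 6 in wild-type peri-infarct tissue. Of all genes 19.7% were called higher in knockout core, 29.1% in wild-type core, 4.42% in knockout and 3.27% in wild-type peri-infarct tissue. The list had a median log2 fold change of 2.61 in knockout core and 2.84 in wild-type core. Cd180, a receptor related to Tlr4, rose in core by 4.23 ± 0.54 in knockout and 5.01 ± 0.56 in wild-type mice, and its partner Ly86 by 3.04 ± 0.37 in knockout and 3.48 ± 0.38 in wild-type mice. Unc93b1, which carries the endosomal receptors to their compartment, rose by 2.81 ± 0.37 in knockout and 2.94 ± 0.37 in wild-type mice. Of 5 other adaptors 3 rose in knockout core and 4 in wild-type core, with 1 and 2 in peri-infarct tissue in that order. Ticam2, which links Tlr4 to Ticam1, rose by 3.01 ± 0.44 in knockout and 3.83 ± 0.45 in wild-type core, and Pik3ap1, which links these receptors to PI3-kinase, by 3.67 ± 0.48 in knockout and 3.93 ± 0.49 in wild-type core. Ticam1, the adaptor of Tlr3, rose in wild-type core by 1.26 ± 0.25 (adjusted p = 0.0014) and had 0.55 ± 0.24 in knockout core (adjusted p = 0.12), or 0.54 ± 0.12 there without the outlying library (adjusted p = 0.0010).

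Further along the pathway, 5 of 17 kinases and ubiquitin ligases rose in knockout core, while in wild-type core 9 rose and Tab3 (-0.43) and Ube2n (-0.36) fell, and 1 rose in peri-infarct tissue of each genotype. This is 5 of 17 where 19.7% of all genes rose in knockout core and 9 of 17 where 29.1% did in wild-type core, and 1 of 17 where 4.42% did in knockout and 3.27% in wild-type peri-infarct tissue, so the peri-infarct counts lay near those of all genes. The median of this list was 0.31 in knockout and 0.33 in wild-type core. Irak4, the kinase that binds Myd88, rose in core by 2.73 ± 0.39 in knockout and 2.61 ± 0.39 in wild-type mice, Ikbke by 3.04 ± 0.50 in knockout and 3.73 ± 0.51 in wild-type mice and Ripk1 by 2.12 ± 0.36 in knockout and 2.50 ± 0.36 in wild-type mice. All 8 transcription factors of the list rose in core of both genotypes, beside the same shares of all genes, with medians of 1.41 in knockout and 1.52 in wild-type mice. Irf5 was highest of those named, at 2.60 ± 0.43 in knockout and 3.28 ± 0.44 in wild-type core, with Nfkb2 at 2.13 ± 0.28 in knockout and 1.92 ± 0.28 in wild-type core and Nfkb1 at 1.57 ± 0.25 in knockout and 1.77 ± 0.25 in wild-type core. In peri-infarct tissue 2 of the 8 rose in knockout mice, where 4.42% of all genes did, and 0 in wild-type mice, where 3.27% did. Of 12 inhibitors tested 8 rose in knockout core, where 19.7% of all genes did, and 7 in wild-type core, where 29.1% did. Among them were Zc3h12a, which degrades cytokine mRNAs (2.50 ± 0.40 in knockout and 2.75 ± 0.40 in wild-type core), Irak3, which holds back Irak signalling (2.38 ± 0.45 in knockout and 2.56 ± 0.45 in wild-type core), and Trim30a (3.16 ± 0.42 in knockout and 2.73 ± 0.41 in wild-type core). Tollip (-0.36 in each genotype) and Cyld (-0.59 in knockout and -0.60 in wild-type core) fell. The share of all genes called lower with all 18 libraries is not given here, and it depended on the libraries kept. With any single wild-type peri-infarct library left out, 2.65% to 2.88% of all genes were called lower in knockout core. In wild-type core 9.57% to 9.96% were. Over every single library left out, the knockout core share ran from 1.12%, without the second knockout core library, to 27.8%, without the outlying library. The wild-type core share ran from 6.01%, without the third wild-type contralateral library, to 21.8%, without the first wild-type core library.

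Of the target genes, 13 of 15 tested were called higher in knockout core, 12 in wild-type core, 8 in knockout peri-infarct and 2 in wild-type peri-infarct tissue, where 19.7%, 29.1%, 4.42% and 3.27% of all genes were in that order. The remaining listed targets were not tested. The list had a median of 4.80 in knockout core and 3.24 in wild-type core. The chemokine Ccl4 rose in core by 6.86 ± 1.00 in knockout and 4.78 ± 0.72 in wild-type mice, Ccl3 by 5.27 ± 0.68 in knockout and 4.59 ± 0.60 in wild-type mice and the cytokine Tnf by 4.99 ± 0.71 in knockout and 3.73 ± 0.63 in wild-type mice. Of 8 reported endogenous ligands 6 rose in core of each genotype, beside the same shares of all genes, and 1, the matrix protein Tnc, in peri-infarct tissue of each. Tnc rose in core by 2.64 ± 0.34 in knockout and 2.68 ± 0.34 in wild-type mice, the proteoglycan Bgn by 3.76 ± 0.50 in knockout and 3.64 ± 0.49 in wild-type mice and Vcan by 1.54 ± 0.25 in knockout and 1.62 ± 0.25 in wild-type mice. Of 4 tested interleukin-1 family receptors, which also use Myd88, Il1r1 (1.76 ± 0.28 in knockout and 1.93 ± 0.29 in wild-type core), Il18rap (4.60 ± 0.64 in knockout and 2.96 ± 0.59 in wild-type core) and Il1rl1 (2.21 ± 0.75 in knockout and 2.62 ± 0.75 in wild-type core) rose in core of both genotypes.

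Without the outlying library several of these counts were larger, and so were the shares of all genes called higher, at 29.6% in knockout core, 13.7% in knockout peri-infarct and 14.2% in wild-type peri-infarct tissue. In peri-infarct tissue 7 accessory genes, 6 transcription factors, 4 kinases and ubiquitin ligases, 3 inhibitors and 4 ligands then rose in knockout mice, and 7 transcription factors, 5 kinases and ubiquitin ligases, 3 inhibitors, 7 targets and 3 ligands in wild-type mice. In knockout core 10 kinases and ubiquitin ligases rose and 2 fell, where 29.6% of all genes were called higher and 27.8% lower. The wild-type core values of the genes named above were smaller without it, with 0.77 for Ticam1, 1.97 for Il18rap, 2.76 for Ikbke, 3.49 for Ccl4 and 3.99 for Cd180.

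Between genotypes 1 gene of all these lists passed with 18 libraries, in the mean over regions, where 0.228% of all genes were called in either direction. Cnpy3, a chaperone that Toll-like receptors need to leave the endoplasmic reticulum, was lower in knockout mice by -0.35 ± 0.06 in the mean over regions (adjusted p = 0.021). It lies on chromosome 17 as Trem2 does, with 34 protein-coding genes between them in the RefSeq table of GRCm38.p6. Other genes of these lists passed only once the outlying library was left out, and the values that follow are without it. In core 3.06% of all genes were then called in either direction. Whether the lists held more calls than all genes did was not tested. Higher in knockout core were Il1b (2.91 ± 0.49, adjusted p = 0.014), Cxcl2 (3.30 ± 0.69, adjusted p = 0.027), the antiviral factor Irf7 (2.04 ± 0.43, adjusted p = 0.028), Trim30a (1.31 ± 0.24, adjusted p = 0.019), Il18rap (1.67 ± 0.38, adjusted p = 0.033) and the alarmin S100a8 (2.18 ± 0.55, adjusted p = 0.048), and lower there was Sarm1 (-0.40 ± 0.10, adjusted p = 0.046). Neutrophil markers, at 82.0 to 161 CPM in knockout core and 56.1 and 58.6 CPM in these wild-type core libraries, moved with the genes that were higher. So did fibroblast markers, at 1780 to 3535 CPM in knockout core and 1491 and 1554 CPM in those wild-type libraries. Infiltrating macrophage markers, at 226 to 298 CPM in knockout core and 155 and 225 CPM in those wild-type libraries, did as well. Neuron markers were lower in knockout core. The part of these cell types was not tested. S100a8 is itself 1 of the neutrophil markers, so for that gene the neutrophil sum is not a separate measure.

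In the mean over regions, again without that library, Ccl4 (-1.89 ± 0.32, adjusted p = 0.0057), Ccl3 (-1.04 ± 0.22, adjusted p = 0.013), Icam1 (-0.71 ± 0.16, adjusted p = 0.020), the co-receptors Cd14 (-0.52 ± 0.11, adjusted p = 0.014) and Cd36 (-2.08 ± 0.46, adjusted p = 0.019), and the inhibitors Tnfaip3 (-0.44 ± 0.11, adjusted p = 0.031) and Tollip (-0.20 ± 0.04, adjusted p = 0.0076) were lower in knockout mice. Il1b (1.47 ± 0.30, adjusted p = 0.012), Irf7 (1.16 ± 0.23, adjusted p = 0.013), Lbp, which passes lipopolysaccharide to Cd14 (1.30 ± 0.30, adjusted p = 0.022), and Trim30a (0.56 ± 0.13, adjusted p = 0.024) were higher. With all 18 libraries the smallest adjusted p among these genes in the mean was 0.080 for Cd36. The calls without the outlying library stood beside 7.46% of all genes called in either direction in that mean.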

How the data were processed

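Bulk RNA-seq of polyadenylated RNA was deposited for 18 libraries. Per the file headers, the authors deposited 1 table of estimated counts per gene, which need not be whole, and 1 table of TPM values, in which counts are scaled to gene length and to the library. HISAT2 2.0.4, Bowtie2 and Subread with build GRCm39 (mm39) are named in the submitters' processing notes, without their roles, and whether counting used the strand is not stated there. Estimated counts were rounded to whole numbers and tested with edgeR 4.0.16 (R 4.3.3): low counts were removed with filterByExpr, libraries were scaled by TMM, and 1 quasi-likelihood model over the 6 groups (12 residual degrees of freedom) gave 12 comparisons, 3 of region within each genotype, 3 of genotype within region, their mean, and 2 of the difference in regional response between genotypes. Calls required a p under 0.05 after Benjamini-Hochberg adjustment over all genes tested. Log2 CPM used a prior count of 2. Intervals and SEs do not include mapping error, and low counts (11 to 23 for Tlr8 and 17.0 to 32.8 for Tlr6 in contralateral tissue) are the least precise.

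The genes described and all lists were chosen with earlier results of these data known. All 10 members were named, with the 3 genes of each pathway list having the smallest p in wild-type core over contralateral tissue and those called between genotypes, while list members that fell in core were named after their values were seen, and the 3 genes most correlated with each member among genes with a mean log2 CPM above 1. Alternatives were RLE size factors, no filter, DESeq2 1.42.0, limma 3.58.1 on log2(TPM + 1) and log2(TPM + 0.1), only the groups compared, a replicate block, and leaving out each library. Same-numbered libraries deviated together only between wild-type peri-infarct and contralateral tissue (r of 0.398, 0.436 and 0.386 for numbers 1, 2 and 3), where the data, not the labels, gave the pairing. The edgeR fit was tested on simulated counts. The number of sample columns left unused was 0.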

Additional observations from a re-analysis of the deposited data

How the results depend on the processing

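In core over contralateral tissue all 10 genes were called in knockout mice under every alternative and 9 or 10 in wild-type mice, except in the wild-type comparison fitted on only the groups compared, where 0 passed. For knockout core over peri-infarct tissue (0 called) DESeq2 called 7, limma 8 with either TPM pseudocount, and the fit on only the groups compared 9. For wild-type core over peri-infarct tissue (8 called) limma on log2(TPM + 1) called 5 and on log2(TPM + 0.1) 1, and both the fit on only the groups compared and the fit with the replicate block called 0. With the replicate block 9 genes passed in knockout and 6 in wild-type peri-infarct over contralateral tissue, and the counts of the other comparisons were within 1.5 times. Only in that wild-type comparison did the data bear out the pairing by number. DESeq2 called 1 gene, Tlr2, in the genotype mean. Leaving out 1 library at a time gave counts of 1 to 10 in knockout and 0 to 10 in wild-type peri-infarct over contralateral tissue, 0 to 9 in core over peri-infarct tissue of each genotype, 0 to 1 in core between genotypes and 0 to 2 in the genotype mean. Tlr3 in knockout core over peri-infarct tissue turned positive with RLE (0.020), no filter (0.060) and DESeq2 (0.020) and ran from -0.082 to 0.11 without single libraries. Myd88 between genotypes ran from -0.63 to 0.45 in core and from -0.19 to 0.16 in the mean. RLE and no filter kept every count within 1.5 times. The cause of these shifts was not tested. The median log2 fold change of all genes in wild-type core over contralateral tissue was -0.34 on the log2 TPM scale and -0.03 with TMM. Depth limits Tlr8, Tlr6 and Tlr1 most in contralateral tissue.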
